A study of Oryza sativa Japonica Group and Oryza sativa Indica Group with 16 samples.

Results

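The bZIP and DREB dehydration transcription factors of rice were followed in flag leaves as soil drought deepened, in the upland japonica cultivar IRAT109, which resists drought, and the paddy indica cultivar ZS97, which is sensitive to it. A list of 8 genes was looked up in the annotation of the Affymetrix rice array: OsbZIP23 by its gene identifier, and bZIP46, bZIP72, ABI5, DREB1A, DREB1B, DREB1C and DREB2A by symbol or synonym. Only probe sets with 1 annotated gene were kept, and 5 of the 8 genes were found, out of 17905 genes that such probe sets stand for. They were OsbZIP23 (LOC4330838, also called ABF2 and AREB1), OsDREB1A (LOC4347620), OsDREB1B (LOC4347618), OsDREB1C (LOC4339974) and OsDREB2A (LOC4324418). The 5 genes had 7 probe sets, since OsDREB1C had 3 and the others had 1 each. The remaining 3 genes matched no probe set by these names and were not analysed here.

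Plants of both cultivars grew in PVC pipes and were sampled at the booting stage in a first round of drought, from the middle of the flag leaf blade. The stages were set by relative water content of the leaf, with D0 (no stress) at 94 to 95%, D1 (slight drought) at 83 to 88%, D2 (moderate) at 74 to 78% and D3 (severe) at 65 to 69%. Each of the 8 groups had 2 biological replicates, which made 16 arrays. A comparison between the cultivars is a comparison of these 2 lines, and where their levels differ at 1 stage, a sequence difference under the probes and a difference in transcript level cannot be told apart.

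Proteins of these families act at the end of the dehydration signal. Abscisic acid, the hormone of water shortage, binds PYL receptors, which then hold back the clade A protein phosphatases PP2C. Released from these phosphatases, SnRK2 kinases (SAPK in rice) phosphorylate bZIP factors of the ABF/AREB type such as OsbZIP23, which bind ABA-responsive elements in the promoters of dehydrins and other protective genes. DREB factors belong to the AP2/ERF family and bind a separate promoter motif, the dehydration-responsive element. DREB1 genes, also called CBF, are best known for their induction by cold, and DREB2 genes for their induction by dehydration and heat, mostly from work in Arabidopsis.

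The array values were signal intensities on a linear scale, with a trimmed mean of 229 to 246 on the 16 arrays, and replicate arrays correlated at 0.9971 to 0.9983. Changes are given as differences of log2(intensity + 16), from 1 limma fit over all 57381 probe sets and 8 groups. A difference was called where its Benjamini-Hochberg adjusted p was under 0.05 and its fold was over 2, and "rose" and "fell" are used only of such differences. All 19 probe sets of leaf mesophyll markers (RBCS, RCA, PORA and others) were above an intensity of 16 on at least 1 array, and their summed intensity was 107572 to 108248 at D0 and 54469 to 56418 at D3 in IRAT109, and 115978 to 120105 and 47201 to 47363 in ZS97. Below 16 on all arrays were 2 of 3 anther, 3 of 6 floral, 3 of 10 seed storage and 1 of 4 root marker probe sets. The floral sum was 406 to 451 at D0 and 782 to 846 at D3 for IRAT109, and 660 to 712 and 452 to 467 for ZS97. The root sum was 250 to 295 and 151 to 167 in IRAT109, and 428 to 452 and 220 to 248 in ZS97. The seed storage sum was 675 to 750 and 399 to 416 in IRAT109, and in ZS97 623 to 708 and 436 to 444. From D0 to D3, 10 of 19 mesophyll probe sets fell in IRAT109 and 14 in ZS97. In IRAT109 1 of 10 seed storage probe sets fell and 1 of 6 floral probe sets rose, and in ZS97 1 floral probe set fell. Over all probe sets, 3.42% rose and 4.78% fell in IRAT109 at D3, and 4.23% and 4.16% in ZS97. The part of these shifts in the results below was not tested, and in a whole leaf section fewer cells of a type and less RNA per cell cannot be told apart.

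OsbZIP23, the ABA-responsive activator, rose at every stage of drought in both cultivars. In IRAT109 its intensity on the 2 arrays was 703.3 and 704.7 at D0, 2047.3 and 1912.7 at D1, 2428.4 and 2356.3 at D2, and 3669.1 and 3594.4 at D3. In ZS97 it was 1124.6 and 1118.7 at D0, 2966.4 and 2851.0 at D1, 3137.7 and 3161.1 at D2, and 3607.7 and 3442.9 at D3. Within each cultivar the arrays of no stage overlapped those of another and the means were in stage order, from a lower start in IRAT109. The step from D1 to D2 was 0.27 in IRAT109 (limma, adjusted p = 0.0131) and 0.11 in ZS97 (adjusted p = 0.246), both under a fold of 2. The log2 change from D0 was 1.47, 1.74 and 2.34 in IRAT109 (SE 0.052, n = 2 arrays a group, adjusted p = 1.95e-10, 3.23e-11 and 1.78e-12), a fold of 2.77 to 5.07. In ZS97 it was 1.36, 1.48 and 1.64 (SE 0.052, adjusted p = 4.76e-10, 1.36e-10 and 4.13e-11), a fold of 2.57 to 3.11. The comparisons with D0 in a cultivar share their D0 arrays.

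On the log2 scale, most of the OsbZIP23 change from D0 to D3 was already present at slight drought. At D1 it stood at 62.8% of the D3 log2 change in IRAT109 and at 83.2% in ZS97. From D2 to D3 the value moved by a further 0.60 in IRAT109 (adjusted p = 1.04e-05), which is under a fold of 2, and by 0.16 in ZS97 (adjusted p = 0.131). The change by D3 was larger in IRAT109 than in ZS97 by 0.70 ± 0.074 (SE, adjusted p = 2.64e-05), again under a fold of 2 and therefore not called. At D0 the IRAT109 level was 0.66 lower on the log2 scale (a difference of -0.66, adjusted p = 5.86e-07, not called), and at D3 the 2 cultivars' arrays overlapped (difference 0.04, 95% interval -0.07 to 0.16, adjusted p = 0.632). In order of level, the IRAT109 and ZS97 D3 groups were highest and did not separate, followed by ZS97 D2, ZS97 D1, IRAT109 D2, IRAT109 D1, ZS97 D0 and IRAT109 D0, with no overlap between neighbours.

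**Figure D1:**
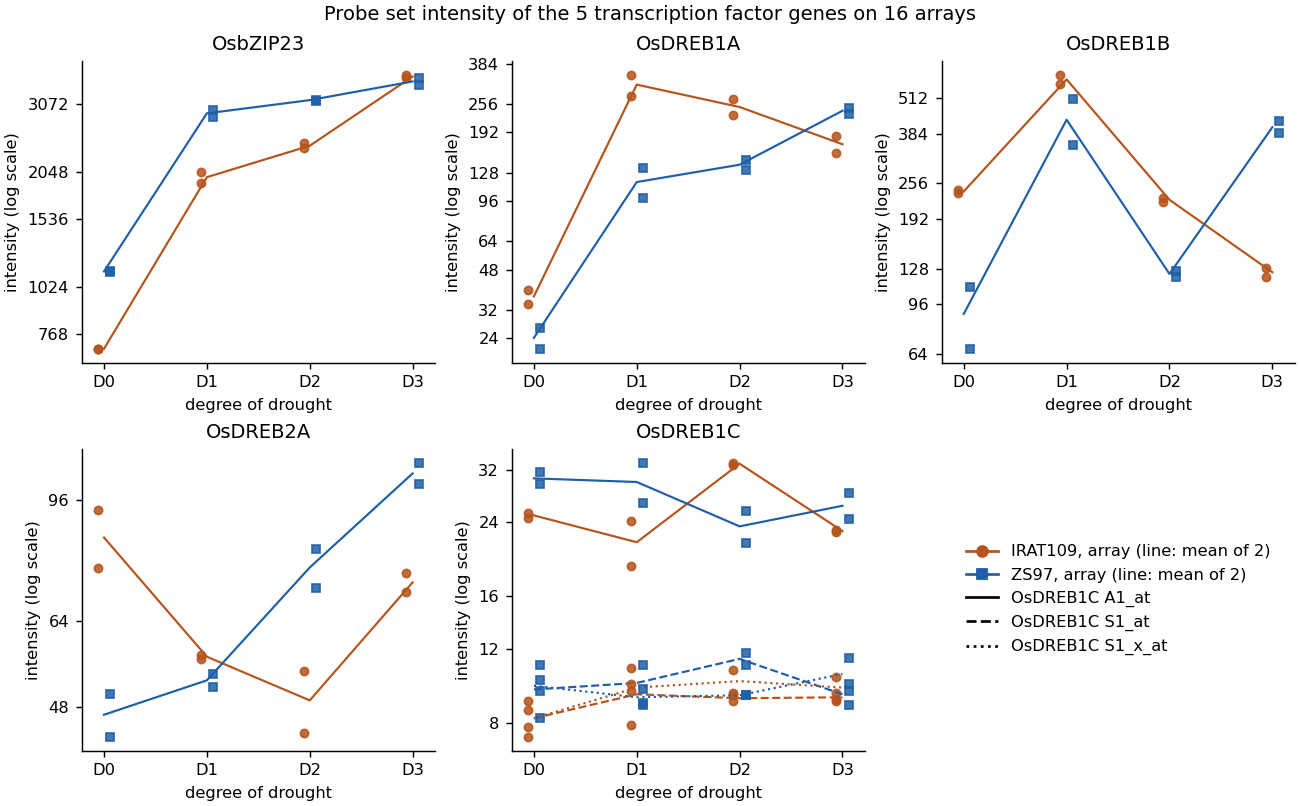
Signal intensity (log scale) of each probe set against the degree of drought, with 1 point per array and lines through the means of 2 arrays, for IRAT109 (circles) and ZS97 (squares). OsbZIP23 climbs in both cultivars to between 3442.9 and 3669.1 at D3, OsDREB1B peaks at D1 in both and again at D3 in ZS97, and 2 of the 3 OsDREB1C probe sets stay under 16.

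OsDREB1A, a CBF-type activator, also rose at every stage in both cultivars, but its course over the stages differed from that of OsbZIP23. IRAT109 arrays read 34.1 and 39.3 at D0, 342.9 and 278.1 at D1, 268.0 and 227.5 at D2, and 156.2 and 184.2 at D3. Those of ZS97 read 21.6 and 26.7 at D0, 133.8 and 98.7 at D1, 145.5 and 131.4 at D2, and 246.0 and 231.2 at D3. The highest mean was thus at slight drought in IRAT109 and at severe drought in ZS97. In IRAT109 the step from D1 to D2 was -0.305 (limma, adjusted p = 0.31), so these stages were not told apart by the test. Changes from D0 were 2.63, 2.32 and 1.82 on the log2 scale in IRAT109 (SE 0.14, adjusted p = 6.51e-09, 1.73e-08 and 1.66e-07) and 1.71, 1.95 and 2.67 in ZS97 (adjusted p = 4.74e-07, 9.9e-08 and 3.67e-09). These are folds of 6.17, 5 and 3.53, and of 3.27, 3.85 and 6.35.

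The opposite slopes of OsDREB1A after D2 were tested as a difference between the cultivars. From D2 to D3 the value moved by -0.50 in IRAT109 (adjusted p = 0.0322) and by 0.72 in ZS97 (adjusted p = 0.00968), neither past a fold of 2. The difference between these steps, -1.22 ± 0.19 (SE, adjusted p = 0.00234), was called; this comparison was added after the values had been seen. With 64 in place of 16 added before taking logs it was -0.99 (adjusted p = 0.00418), just under a fold of 2. Compared with D0, the responses differed by 0.92 at D1 (adjusted p = 0.00578) and by -0.85 at D3 (adjusted p = 0.00717), both under a fold of 2. The D1 difference was called, at 1.01 to 1.11, without IRAT109 D1 replicate 2, ZS97 D0 replicate 1 or ZS97 D1 replicate 1. Levels of the cultivars differed past the threshold at D1, where IRAT109 was higher by 1.31 (adjusted p = 6.76e-06), and not at D0 (0.39, adjusted p = 0.048), D2 (0.77, adjusted p = 0.000566) or D3 (-0.45, adjusted p = 0.0212). Ranked by level, IRAT109 D1 came first, IRAT109 D2 and ZS97 D3 overlapped next, then came IRAT109 D3, an overlapping pair of ZS97 D2 and ZS97 D1, IRAT109 D0 and ZS97 D0.

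OsDREB1B, a close relative of OsDREB1A that lies near it with 1 gene between them (DREB1H), had the largest called difference in response between the cultivars among the 5 genes. Its intensity in IRAT109 was 237.7 and 242.3 at D0, 574.5 and 620.1 at D1, 228.4 and 219.9 at D2, and 119.9 and 128.7 at D3. For ZS97 the values were 66.6 and 110.5 at D0, 510.2 and 350.0 at D1, 125.5 and 119.7 at D2, and 424.5 and 385.0 at D3. Both cultivars had a peak at slight drought that was gone at moderate drought, and only ZS97 had a further peak at severe drought. The ZS97 replicates at D0 and D1 lay further apart than those of the other groups.

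At D1 OsDREB1B rose by 1.26 in IRAT109 (SE 0.17, 2.39-fold, adjusted p = 6.95e-05) and by 2.1 in ZS97 (4.29-fold, adjusted p = 7.08e-07). It then fell from D1 to D2 in both, by 1.35 in IRAT109 (adjusted p = 0.000886) and, in ZS97, by 1.66 (adjusted p = 4.49e-05). At D2 the change from D0 was -0.09 in IRAT109 (95% interval -0.47 to 0.29, adjusted p = 0.764) and 0.44 in ZS97 (0.06 to 0.82, adjusted p = 0.0758). The ZS97 value was 0.13 without ZS97 D0 replicate 1 and 0.75 without ZS97 D0 replicate 2, with an adjusted p under 0.05 in the latter case and a fold under 2 in both. From D2 to D3 the gene rose by 1.60 in ZS97 (3.03-fold, adjusted p = 0.00022), the rank 7 increase among all probe sets at that step, while in IRAT109 the difference was -0.78 (adjusted p = 0.0113, under a fold of 2). At D3 it was therefore 2.04 above D0 in ZS97 (4.11-fold, adjusted p = 6.08e-07), and -0.87 from D0 in IRAT109 (adjusted p = 0.00134, under a fold of 2).

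The difference between the cultivars in the D3 change of OsDREB1B was -2.91 ± 0.25 (SE, adjusted p = 4.01e-06), and that in the step from D2 to D3 was -2.38 ± 0.25 (adjusted p = 0.000119; this step was compared after the values had been seen). At D1 the 2 responses differed by -0.84 (adjusted p = 0.0372) and at D2 by -0.53 (95% interval -1.07 to 0.00, adjusted p = 0.16), neither called. Without ZS97 D0 replicate 1 or replicate 2 the D2 difference was -0.22 and -0.84. The D1 difference was called at -1.15 without ZS97 D0 replicate 2 and at -1.10 without ZS97 D1 replicate 2. In level, IRAT109 was higher at D0 by 1.32 (adjusted p = 6.72e-05) and lower at D3 by 1.58 (a difference of -1.58, adjusted p = 1.08e-05). The highest groups were IRAT109 D1, then ZS97 D1 and ZS97 D3, which overlapped. Below them stood IRAT109 D0, IRAT109 D2, the overlapping IRAT109 D3 and ZS97 D2, and last ZS97 D0.

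**Figure D2:**
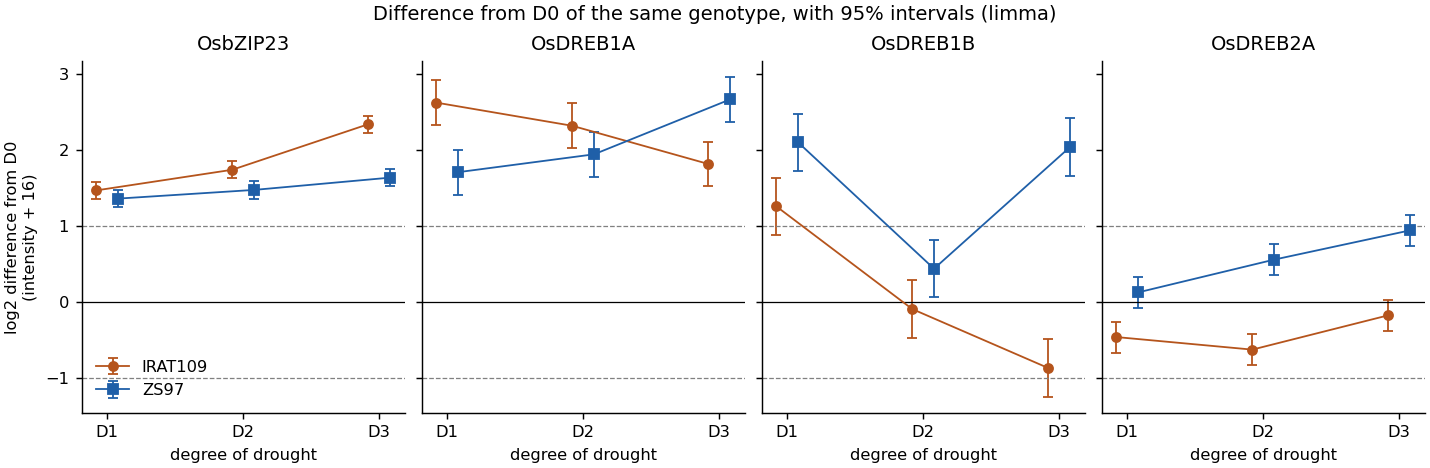
Difference of log2(intensity + 16) from D0 of the same cultivar at D1, D2 and D3, with 95% intervals from limma, for the 4 genes other than OsDREB1C. Dashed lines mark a fold of 2. At D3 OsDREB1B stands at -0.87 in IRAT109 and 2.04 in ZS97, and OsDREB2A stays between the dashed lines in both.

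OsDREB2A, the DREB2-type gene among the 5, had small changes of opposite sign in the cultivars. Only at D2 did the changes of both cultivars have a limma adjusted p under 0.05. Its intensity in IRAT109 was 92.7 and 76.5 at D0, 57.2 and 56.5 at D1, 44.1 and 54.2 at D2, and 70.5 and 75.2 at D3. In ZS97 the arrays read 43.5 and 50.2 at D0, 51.4 and 53.7 at D1, 81.5 and 71.6 at D2, and 101.0 and 108.5 at D3. All arrays under drought were below those at D0 in IRAT109 and above them in ZS97. The log2 differences from D0 were -0.46, -0.63 and -0.18 in IRAT109 (SE 0.094, adjusted p = 0.00165, 0.000123 and 0.187) and 0.13, 0.56 and 0.94 in ZS97 (adjusted p = 0.402, 0.000354 and 2.66e-06), and none passed a fold of 2.

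The difference between the cultivars in these responses was called at 2 stages. For OsDREB2A it was -0.59 at D1 (adjusted p = 0.00914, not called), -1.18 ± 0.13 at D2 (SE, adjusted p = 3.19e-05) and -1.12 ± 0.13 at D3 (adjusted p = 7.03e-05). Each cultivar's own change was under a fold of 2. At D2 the called difference combined opposite shifts, -0.63 in IRAT109 (limma, adjusted p = 0.000123) and 0.56 in ZS97 (adjusted p = 0.000354). At D3 the larger part of the called difference was the ZS97 change, 0.94 (adjusted p = 2.66e-06). The IRAT109 change at D3 was -0.175 (adjusted p = 0.187), so a shift in that cultivar was not shown. With 64 added in place of 16, the differences were -0.73 at D2 and -0.72 at D3, and neither was called. The ZS97 change at D3 was called, at 1.02, without ZS97 D0 replicate 2. In level ZS97 D3 was highest. ZS97 D2 came below it and overlapped both of its neighbours in the order, IRAT109 D0 above and IRAT109 D3 below, and those neighbours did not overlap each other. Then came IRAT109 D1, and at the bottom IRAT109 D2 overlapped ZS97 D1 and ZS97 D0, which were apart.

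OsDREB1C, a further CBF-type gene, read below the median of all probe sets (36.9 to 38.8 by array) on every array. The probe set ending in A1_at ranged from 18.9 to 33.2 over the 16 arrays, that ending in S1_at from 7.4 to 11.7 and that ending in S1_x_at from 7.8 to 11.4. None of the 3 was called in any of the 22 comparisons, in which their log2 differences ran from -0.44 to 0.61. The A1_at probe set had an adjusted p under 0.05 in 8 comparisons, each under a fold of 2, and the other probe sets in 0. Its difference was 0.26 from D0 to D2 in IRAT109 (adjusted p = 0.0276) and -0.24 in ZS97 (adjusted p = 0.0458), and the responses of the cultivars differed by 0.50 at D2 (adjusted p = 0.00849) and by 0.61 in the step from D1 to D2 (adjusted p = 0.00918). At these intensities the added constant shrinks differences.

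Counted over the 7 probe sets, 3 rose at D1 in IRAT109, where 2.87% of all probe sets rose, 2 rose at D2 (2.99% of all) and 2 at D3 (3.42%). In ZS97 the counts were 3 at D1 (2.47%), 2 at D2 (3.53%) and 3 at D3 (4.23%). By limma none fell against D0 in either cultivar, where 3.38, 4.33 and 4.78% of all probe sets fell in IRAT109 and 2.97, 3.73 and 4.16% in ZS97. An unadjusted limma p under 0.05 for a decrease was found for 1 at each stage in IRAT109. In ZS97 it was found for 0, 1 and 0 at D1, D2 and D3. No decrease passed a fold of 2, so rank products, held to the same fold, could not call any. In the mean of the 3 drought stages, 2 rose in IRAT109 (2.97% of all) and 3 in ZS97 (3.32%), with OsDREB1B as the gene that was called in ZS97 (1.53 ± 0.14, adjusted p = 1.3e-06) and not in IRAT109 (0.10 ± 0.14, adjusted p = 0.663). OsbZIP23 had a mean change of 1.85 in IRAT109 and 1.49 in ZS97, and OsDREB1A of 2.26 and 2.11.

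Between drought stages calls were rare in the whole data set. From D1 to D2 1 of the 7 probe sets fell in each cultivar, that of OsDREB1B, against 0.115% of all probe sets in IRAT109 and 0.254% in ZS97. At the step to D3 none was called by limma in IRAT109, where 0.627% of all were called either way, and 1 rose in ZS97 (0.141%). By limma 5 of the 7 had an unadjusted p under 0.05 in IRAT109 at this step. None passed a fold of 2, so rank products at that fold could not call any. Differences between the cultivars in the change from D0 were called for 0 probe sets at D1 (2.85% of all were called either way), 1 at D2 (4.2%), 2 at D3 (3.41%) and 1 in the mean of the stages (3.07%). Of the 7 probe sets at D1, 3 had an adjusted p under 0.05 and 3 an unadjusted p under 0.05, all under a fold of 2. In the steps, 0 were called by limma from D1 to D2 (0.821% either way; 3 had an unadjusted p under 0.05) and 2 from D2 to D3 (0.709%). Each called difference had the lower change in IRAT109.

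At single stages, the level differed between the cultivars for 1 of the 7 at D0 (4.87% of all probe sets), 1 at D1 (5.53%), 0 at D2 (6.65%) and 1 at D3 (5.6%). OsDREB1B accounted for the calls at D0 and D3 and OsDREB1A for that at D1. At D2 limma gave 5 of the 7 an adjusted p under 0.05, and 5 an unadjusted one, at folds under 2.

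**Figure D3:**
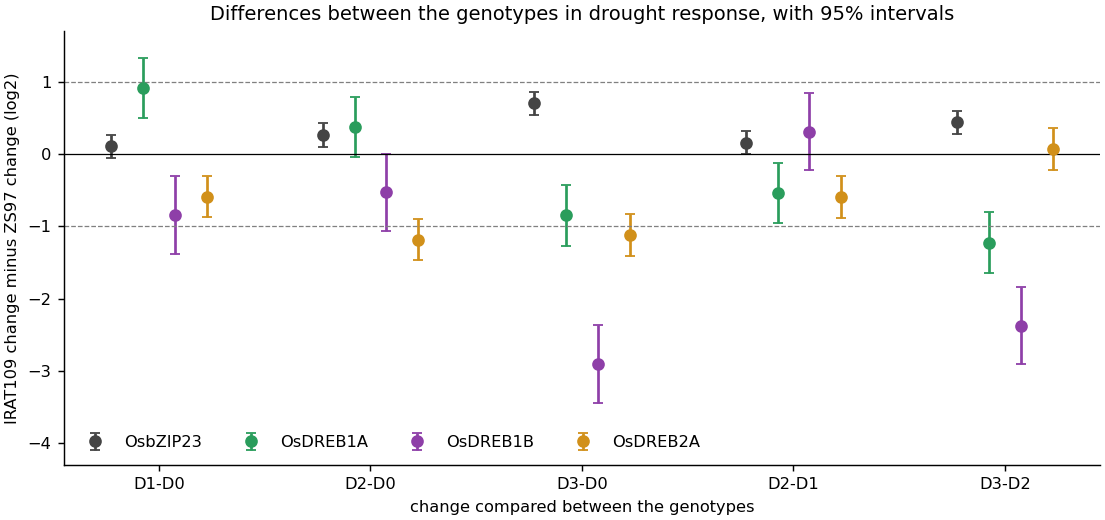
Change in IRAT109 minus change in ZS97 on the log2 scale, with 95% intervals from limma, for 3 changes from D0 and for the steps from D1 to D2 and from D2 to D3; dashed lines mark a fold of 2. OsDREB1B at D3 (-2.91) and at the step from D2 to D3 (-2.38) lies farthest from 0.

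Among bZIP and DREB genes outside the list of 8, the calls in the mean of the drought stages were decreases of bZIP genes. Of 19 probe sets for 18 other bZIP genes, none rose in this mean. In IRAT109 3 fell (4.07% of all probe sets fell) and in ZS97 2 fell (3.54%). Both are larger shares than over all probe sets, on small counts. The median change of the 19 probe sets was -0.05 in IRAT109 and -0.03 in ZS97, beside 0.01 and -0.01 over all probe sets. In IRAT109 and ZS97 respectively, BZIP63 fell by 2.18 and 1.58 (adjusted p = 4.01e-09 and 1e-07). BZIP50, a factor of the endoplasmic reticulum stress response, fell by 1.62 and 1.94 (adjusted p = 6.74e-09 and 1.16e-09). BZIP52 fell by 1.48 in IRAT109 (adjusted p = 5.32e-08), and its change in ZS97 was -0.65 (adjusted p = 0.000155, under a fold of 2). The names of the next genes were picked after their values were seen. TRAB1, an ABA-responsive bZIP activator, rose at D3 in both cultivars, by 1.18 and 1.02 (adjusted p = 1.04e-08 and 4.33e-08), and BZIP08 rose at D1, by 1.06 and 1.04 (adjusted p = 3.13e-07 and 4.49e-07).

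Other DREB genes were represented by 5 probe sets for DREB1E, DREB1G, DREB2B and DREB2D, and none was called in the mean change of either cultivar. Their median was -0.07 in IRAT109 and 0.01 in ZS97. DREB1G had the course of OsDREB1B at a much lower intensity, with D0 arrays at 14.5 to 18.9, D1 at 39.6 to 40.7, D2 at 24.7 to 28.8 and D3 at 11.8 to 12.2 in IRAT109. In ZS97 it read 14 to 15.1, 32.1 to 32.8, 13.5 to 15.5 and 26.7 to 30 at the same stages. Both peaks of ZS97 and the single peak of IRAT109 were seen in this probe set too, under a fold of 2 on the scale used. Cross-hybridization of related DREB1 transcripts to the probes was not tested.

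Upstream of the bZIP factors, the receptor, kinase and phosphatase genes moved unequally. PYL11, the 1 ABA receptor gene matched, changed by less than a fold of 2 (0.68 in IRAT109 and 0.53 in ZS97). Over all probe sets, 2.97% rose and 4.07% fell in the mean change in IRAT109, and 3.32% and 3.54% in ZS97. Of 10 SnRK2 kinase probe sets, 3 rose and 1 fell in each cultivar, with a median of 0.37 in both. SAPK4 rose by 1.85 and 1.69 and SAPK10 by 1.52 and 1.76, whereas SAPK2 fell by 1.52 and 1.76 (adjusted p of at most 5.79e-10 for the 3 genes). SAPK1 rose in ZS97 only at the threshold used, by 1.35 (adjusted p = 1.78e-09) against 0.23 in IRAT109 (adjusted p = 0.0119), and the difference between the cultivars was -1.12 (adjusted p = 1.89e-06). SAPK3 and SAPK8, named after their values were seen, went the other way: SAPK3 rose in IRAT109 by 1.14 (adjusted p = 1.44e-10) against 0.40 in ZS97 (difference 0.74, adjusted p = 1.69e-06, not called), and SAPK8 changed by 0.76 and -0.04, neither called (difference 0.80, adjusted p = 2.13e-06, not called). The clade A phosphatases rose nearly throughout, with 7 of 8 probe sets called up in IRAT109 and 6 of 8 in ZS97, and medians of 1.67 and 1.76. PP2C51 rose by 4.07 and 4.53 and by 1.87 and 2.44 on its 2 probe sets, PP2C68 by 3.47 and 2.58, and PP2C09 by 1.91 and 2.01 (adjusted p of at most 1.18e-10).

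Downstream, dehydrins and LEA proteins, the protective products that ABA-responsive elements control, gave the largest changes of the lists examined. Of their 11 probe sets for 8 genes, 8 rose in each cultivar (2.97% and 3.32% of all probe sets rose), and the medians were 2.29 and 2.37. RAB21 rose by 8.38 and 7.95, RAB16B by 7.90 and 7.49, and LEA3 by 7.14 and 7.44 (adjusted p of at most 1.38e-15). RAB16D, named after its value was seen, was the list member that differed between the cultivars past the threshold, by -4.03 in the mean change (adjusted p = 1.28e-11). Its intensity in IRAT109 was 73.9 to 80.5 at D0 and 355.0 to 370.7 at D3, and in ZS97 57.7 to 62.3 and 5477.8 to 5650.5. The lists were drawn up with earlier results of these arrays known, and their counts are a description.

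**Figure D4:**
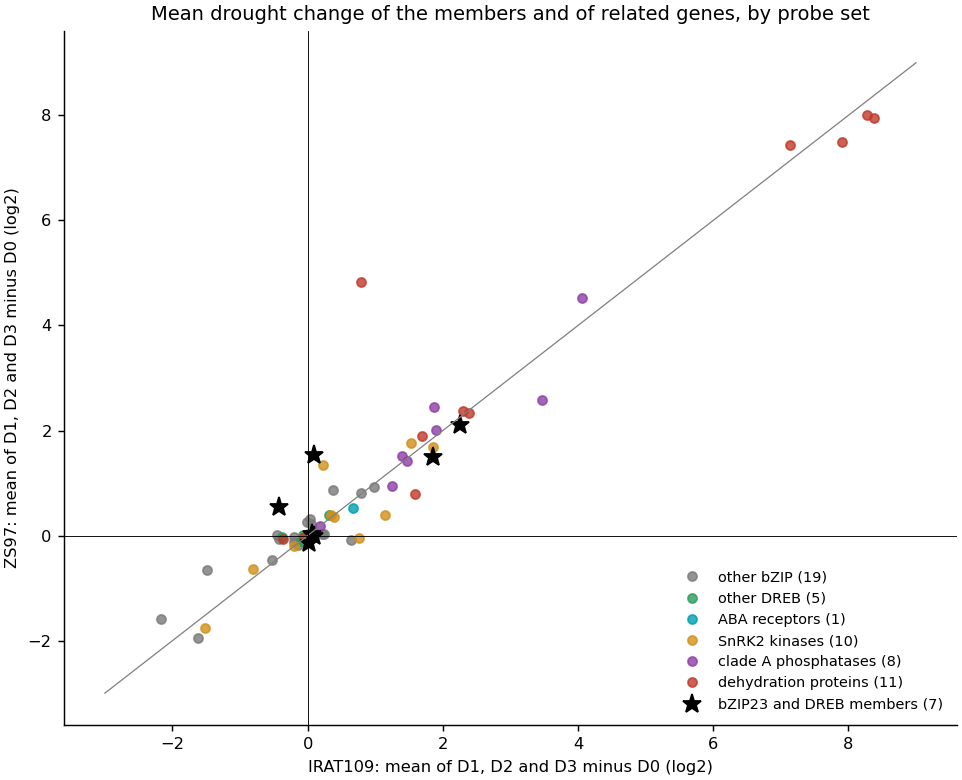
Mean change of D1, D2 and D3 from D0 in IRAT109 (x axis) and ZS97 (y axis), both on the log2 scale, with 1 point per probe set, stars for the 7 probe sets of bZIP23 and DREB genes and the number of probe sets of each list in the legend; the diagonal marks equal changes. Dehydration proteins reach 8.38, and RAB16D and OsDREB1B lie above the diagonal.

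The genes whose course over the 8 groups was most like that of each called member were looked for by the correlation of group means of log2(intensity + 16), among probe sets spanning over 1 on that scale. Over 8 points that share arrays this is a description. The array annotation names few genes by symbol, and 37 probe sets could be compared. Nearest to OsbZIP23 were PP2C68 (r = 0.99), P5CS1, an enzyme of proline synthesis (0.97), and LEA19, which is the LEA3 probe set named above (0.96). OsDREB1A was nearest to 2 probe sets of OsSPO11B (0.94 and 0.92) and to NCL1 (0.90). No candidate passed 0.49 for OsDREB1B, for which cob, XAT2 and wsl6 came first (0.49, 0.45 and 0.45).

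With symbols taken from RefSeq synonyms as well, an extension made after the first values were seen, 1248 probe sets could be compared. PP2C68 stayed first for OsbZIP23, followed by CIPK14, BGLU32, IAA24 and HOX6 (0.98 to 0.99). PP2C68 read 138.7 to 159.8 at D0 and 2793.3 to 2810.9 at D3 in IRAT109, and 355.1 to 371.0 and 2360.0 to 2378.2 in ZS97, so it too started lower in IRAT109. For OsDREB1A the nearest were DRB1, Anp32, ABA8OX1, which encodes an enzyme that breaks down ABA, IAA1 and OsC3H13 (0.96 to 0.97). OsDREB1B was nearest to DREB1G (0.92), then MYB2 (0.83) and NAC067 (0.72). Among the members themselves, r was 0.75 between OsbZIP23 and OsDREB1A, 0.55 between OsDREB1A and OsDREB1B, and 0.14 between OsbZIP23 and OsDREB1B.

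**Figure D5:**
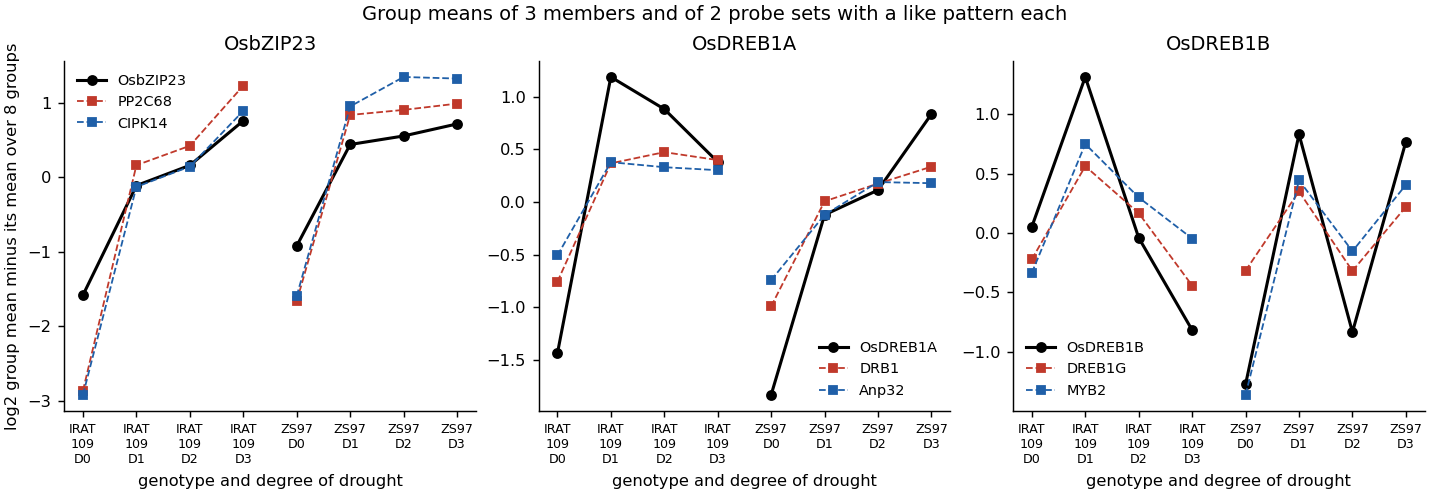
Group means of log2(intensity + 16), each minus its mean over the 8 groups, against cultivar and degree of drought, for OsbZIP23, OsDREB1A and OsDREB1B (black) and the 2 nearest probe sets among 1248 (dashed). PP2C68 and CIPK14 follow OsbZIP23 (r = 0.99 each), and DREB1G has the peaks of OsDREB1B at D1 in both cultivars and at D3 in ZS97 (r = 0.92).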

How the data were processed

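Values were the signal intensity per probe set and array that the authors deposited, on a linear scale. The labels name MAS5 without a version and the study's methods name robust multiarray averaging, so the summary method was not settled. Raw scans were not used here. The study's methods place genes on a TIGR release, which is not the RefSeq assembly used here for names, so no coordinates are printed. Gene names came from the platform annotation (22436 probe sets with 1 gene, 95 with several) and RefSeq (assembly ASM3414082v1). The constant 16 was added, log2 was taken, and 8 group means were fitted to 57381 probe sets with limma 3.58.1 in R 4.3.3, after a test on simulated data. The median residual SD was 0.0827, and 0.0355 to 0.209 for the 7 probe sets examined. In all 22 comparisons were fitted, 2 of them added later. The number of arrays, 2 per group, limits the precision. The members, lists and tests were chosen with earlier results of these data known. Named were all members, up to 4 probe sets per list called in a mean change, by size, and the 3 nearest probe sets of each called member. Alternatives were other constants (1 and 64), folds (1.5 and none), a filter on mean intensity (50), quantile normalization, median centring, an intensity trend in eBayes, the arrays of 1 cultivar alone, rank products (100 random rankings), a replicate block and leaving out each array.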

Additional observations from a re-analysis of the deposited data

Results flagged for a closer look

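The response to drought differed between IRAT109 and ZS97, by a test of the difference itself, in 6 results for 3 of the genes. All values are the log2 change in IRAT109 minus that in ZS97, by limma with Benjamini-Hochberg adjustment. OsDREB1B differed in the change from D0 to D3 (-2.91, adjusted p = 4.01e-06), in the mean change of the 3 drought stages (-1.43, adjusted p = 0.000195) and in the step from D2 to D3 (-2.38, adjusted p = 0.000119). At D3 both IRAT109 arrays were below both D0 arrays of that cultivar, and both ZS97 arrays were above theirs.

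OsDREB2A differed at D2 (-1.18, adjusted p = 3.19e-05) and at D3 (-1.12, adjusted p = 7.03e-05), where IRAT109 arrays stood below D0 and ZS97 arrays above it. The IRAT109 change itself was not shown at D3 (-0.175, limma, adjusted p = 0.187). OsDREB1A differed in the step from D2 to D3 (-1.22, adjusted p = 0.00234), down in both IRAT109 arrays and up in both ZS97 arrays relative to the D2 arrays. The 2 step differences were compared after the values had been seen.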

How the results depend on the processing

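The 6 differences between the cultivars given above kept their direction with the constants 1 and 64, quantile normalization, median centring and each array left out. The fold settings, intensity filter, intensity trend and replicate block could not change these values. The arrays of 1 cultivar alone and rank products gave no such differences. With the constant 64, 3 of the 6 dropped under a fold of 2: OsDREB2A at D2 (-0.73) and D3 (-0.72) and OsDREB1A from D2 to D3 (-0.99). Counts of the 7 probe sets called in those comparisons were then 0, 1 and 1. With the constant 1, 2 were called in the mean difference between cultivars, where OsDREB2A reached -1.18. The ZS97 change of OsDREB2A at D3 (1.15) and the D3 difference of OsDREB1A (-1.08) were then called too. Leaving out 1 array gave 0 to 1 calls for the D1 difference and 1 to 2 for the mean difference, the latter being 2 without IRAT109 D0 replicate 2, IRAT109 D2 replicate 2 or ZS97 D0 replicate 2 (OsDREB2A at -1.08, -1.0 and -1.04). No called value changed sign. Of 3560 values compared, 48 that were called in neither setting changed sign.

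Without a fold threshold the 7 probe sets gave 4 calls at D2 in each cultivar, 3 and 2 from D1 to D2 in IRAT109 and ZS97, and 5 and 3 from D2 to D3. Differences in response then numbered 3 at D1, 3 at D2, 4 at D3, 3 in the mean and 2 from D1 to D2, and differences in level 4, 3, 5 and 3 at D0 to D3. Among list members there were 15 and 11 calls for other bZIP genes in IRAT109 and ZS97, 2 and 1 for other DREB, 1 and 1 for ABA receptors, and 10 and 9 for SnRK2 kinases. At a fold over 1.5 there were 2 calls from D2 to D3 in each cultivar, differences in response of 3 at D1, 4 at D3, 2 in the mean and 2 from D1 to D2, and differences in level of 3 at D0 and 2 at D2. Other bZIP genes then gave 6 calls in each cultivar and ABA receptors 1 in IRAT109. The number of calls is set by the fold threshold in these cases, as the fit is the same.

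Same-numbered replicates correlated at -0.404 to 0.246 in their deviations, with 4 of 28 pairs over 0.1, so the numbers do not pair the samples. With the replicate block each count of called members was the same as without it (2 for the D3 difference in response). Quantile normalization, median centring, the filter on intensity, an intensity trend, the arrays of 1 cultivar alone and rank products moved no count of called members by over 1.5 times. The last 2 cover only changes within a cultivar. At the shared fold threshold, rank products called 1964 probe sets up and 2740 down in IRAT109 at D3, beside 1963 and 2740 by limma. Rank products are thus hardly a separate check of these counts. Each group had 2 arrays, and OsDREB1C had low intensities, where the added constant shrinks differences.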
